A study of Mus musculus with 6 samples.

Results

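The ATP-binding cassette (ABC) transporter genes are a family named by a subfamily letter, A to G, and a number. Members were all protein-coding genes with the symbols Abca to Abcg followed by a number and, in some, a letter, and with at least 30 reads summed over the 6 libraries. They came to 49 of the 50 protein-coding genes with such a symbol, among 54146 gene rows in all. The one left out was Abcc12, with 25 reads. RNA was sequenced from tumors of 4T1 cells, a mouse mammary carcinoma line, grown orthotopically, that is in a mammary fat pad, for 3 weeks in nude mice, animals without a thymus that lack mature T cells. One group of 3 libraries came from wild type cells, and the other group of 3 came from Ki-67-KO cells, with the genotype Mki67-/-. Mki67 encodes Ki-67, a nuclear protein of dividing cells. The age and sex of the mice and the number of cell clones are not given in the sources used here, so a clone's own traits cannot be told apart from the genotype.

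ABC proteins bind and split ATP in a conserved nucleotide-binding domain. Most use it to move substrates across a membrane. Subfamily A mainly moves lipids. Subfamily B holds P-glycoprotein, which pumps many drugs out of cells, together with transporters of mitochondria, lysosomes and bile. Subfamily C holds the multidrug resistance proteins (MRP) and the sulfonylurea receptors. Subfamily D works in peroxisomes and lysosomes, and subfamily G moves sterols and drugs. Subfamilies E and F have no membrane-spanning part and act in translation.

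Levels are given as CPM, counts per 1000000 gene-assigned read pairs, with library scaling by edgeR's trimmed mean of M values (TMM). A gene was called where its edgeR quasi-likelihood test gave a Benjamini-Hochberg adjusted p under 0.05 over all 19900 genes tested. Gene counts per library ran from 22081970 to 38399826, and the 3 knockout libraries were the shallowest. Knockout replicates 2 and 3 had 54.6% and 52.7% unmapped pairs, against 30.8% to 33.9% in the other 4 libraries. Pairs outside annotated exons made up 14.2%, 9.9% and 18.9% of uniquely mapped pairs in knockout replicates 1 to 3, and 9.2% to 11.1% in wild type. Mki67 was at 359.6, 395 and 325 CPM in wild type and at 98.7, 117 and 139 CPM in knockout libraries (log2 fold change -1.61, SE 0.14, edgeR adjusted p = 6.79e-05), in the direction of the labels. Transcript was still counted in every knockout library. The epithelial list, 8 genes such as Epcam and Cdh1, summed to 2874 to 2980.1 CPM in wild type and 5928 to 6384 CPM in knockout libraries. Epithelial transcripts, the defining ones for a carcinoma, were therefore present in all 6 libraries. In bulk tissue, fewer cells of a type and less RNA per cell cannot be told apart.

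Promoters of 5 called members, 3 lower and 2 higher in knockout tumors, are shown so that members that moved in opposite directions can be compared. Each is the 250 bases before the annotated start, 5′ to 3′ on the gene's strand, from RefSeq on GRCm38.p6. Capitals mark an E-box (CACGTG) or the core of an antioxidant response element, the site of the stress factor NRF2 (TGACNNNGC, or GCNNNGTCA on the other strand).
Abca1 (chr4:53159896-53160145, minus strand): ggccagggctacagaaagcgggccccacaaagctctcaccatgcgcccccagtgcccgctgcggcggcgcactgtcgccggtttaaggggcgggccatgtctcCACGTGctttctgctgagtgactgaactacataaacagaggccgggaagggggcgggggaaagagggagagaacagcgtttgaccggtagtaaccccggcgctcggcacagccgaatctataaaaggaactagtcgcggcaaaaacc
Abcg3 (chr5:104982718-104982967, minus strand): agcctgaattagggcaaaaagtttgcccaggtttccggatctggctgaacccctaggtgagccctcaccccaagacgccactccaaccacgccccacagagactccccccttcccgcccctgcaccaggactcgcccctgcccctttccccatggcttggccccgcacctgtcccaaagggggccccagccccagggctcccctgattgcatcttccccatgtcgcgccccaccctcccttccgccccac
Abcb1b (chr5:8797897-8798146, plus strand): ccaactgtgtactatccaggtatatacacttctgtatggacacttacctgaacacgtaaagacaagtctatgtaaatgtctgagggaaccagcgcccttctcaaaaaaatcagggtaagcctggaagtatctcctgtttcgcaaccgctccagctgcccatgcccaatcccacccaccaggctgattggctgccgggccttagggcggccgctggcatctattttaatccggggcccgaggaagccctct
Abcb10 (chr8:123983123-123983372, minus strand): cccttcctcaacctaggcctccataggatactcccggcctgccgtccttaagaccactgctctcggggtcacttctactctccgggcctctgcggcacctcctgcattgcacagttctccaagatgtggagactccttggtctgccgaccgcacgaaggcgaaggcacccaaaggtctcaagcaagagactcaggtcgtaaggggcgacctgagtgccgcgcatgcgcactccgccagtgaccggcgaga
Abcc4 (chr14:118706220-118706469, minus strand): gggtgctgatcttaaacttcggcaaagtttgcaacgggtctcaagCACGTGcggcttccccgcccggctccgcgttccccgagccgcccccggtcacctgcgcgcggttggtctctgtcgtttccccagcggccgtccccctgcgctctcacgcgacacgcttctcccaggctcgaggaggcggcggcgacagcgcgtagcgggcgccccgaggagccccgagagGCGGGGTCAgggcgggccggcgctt
Of 49 members, 37 had a RefSeq promoter and 33 had one within 100 bases of the GENCODE start. The E-box was in 5 of those 33 (15.2%), namely Abca1, Abca15, Abca8a, Abcc4 and Abcf1, and in 6.02% of all 32851 promoters. The median share of G and C bases was 63.6% in the 19 of at least 1 CPM in wild type. It was 52.0% in the 14 under 1 CPM and 52.4% over all promoters. Base content was not matched in this comparison. The response element core was in 1 of 33 (3.03%), Abcc4, and in 10.2% of all promoters. Abcc2 and Abcc10 also hold it, before RefSeq starts 116 and 329 bases from the GENCODE start, which the limit of 100 bases leaves out. The shares over all promoters carry no such limit, so members and background are not strictly alike. The DR4 repeat that liver X receptors (LXR) bind, AGGTCA 2 times in the same direction with 4 bases between, was in 0.0152% of all promoters and in no member's window. Each motif was searched on both strands in these exact letters only, so a site that departs from them is not found. At a share of 0.0152%, hardly any match could be found among 33 members. The absence of DR4 therefore says nothing on whether a member has an LXR site. Among the 5 promoters shown, those of Abca1, which fell, and Abcc4, which rose, hold the E-box, 147 and 205 bases before the start. No motif overlapped another there. A match is a description of letters and not of binding.

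Among the ABC genes, 5 rose and 8 fell in knockout tumors, and 31 of those tested did not pass. Of the 44 members that passed the filter on low counts, 13 were called, or 29.5%, where 36.0% of all genes tested were called. Higher in knockout tumors were 5 members (11.4%, against 17.6% of all genes), and lower were 8 (18.2%, against 18.4%). Of protein-coding genes alone, 19.0% were higher and 22.6% lower, so the family's shares lie near or under the background in both directions. The higher ones were Abca12, Abca5, Abcb10, Abcc4 and Abcb8, and Abcg3, Abca9, Abca1, Abcc3, Abcb1b and Abcd3 were among the lower ones. Of the called members, Abca12 and Abca5 were at least 2-fold higher, and Abcg3, Abca9, Abca1 and Abcc3 at least 2-fold lower, where 9.48% and 5.16% of all genes were. The 2 groups lay fully apart in 21 of the 44 (47.7%, against 50.5% of all genes), with the knockout above in 10 (24.5% of all genes) and below in 11 (26.0% of all genes). The median log2 fold change was 0.18 for the 44 and 0.05 for all genes tested. Without knockout replicate 2, 11 members were higher and 12 lower. With any 1 wild type library left out, 2 members were higher. Calls over all genes moved the same way, and the shares above are of the main fit only. A larger share of all genes was called without knockout replicate 2, and a smaller share without any 1 wild type library. These shifts are therefore not particular to the family. Markers of epithelium (7 of 8 higher) and of macrophages (9 of 9 lower) moved between the same libraries, and their part in these counts was not tested.

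**Figure D1:**
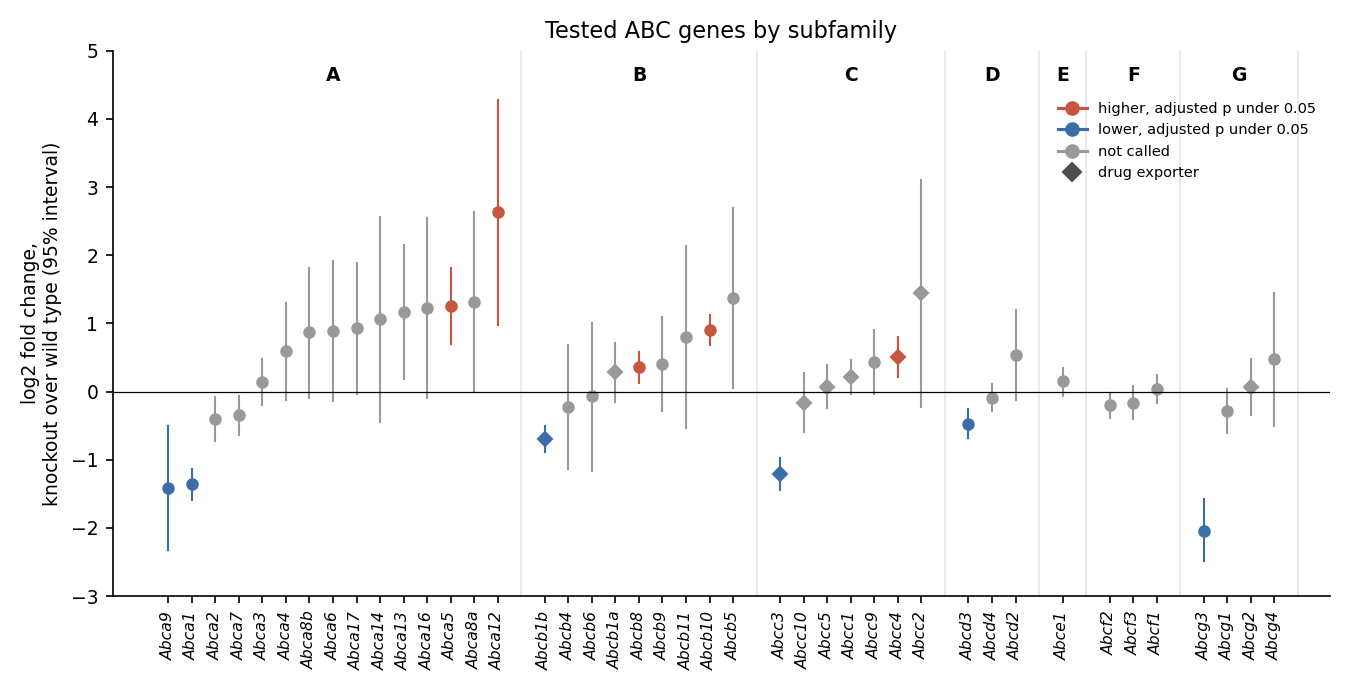
Log2 fold change (knockout over wild type) of tested ABC genes by subfamily, with 95% intervals from edgeR as vertical lines. Red and blue symbols passed the threshold, grey ones did not, and diamonds are drug exporters. Of the lower genes, 4 lie below -1, with Abcg3 lowest at -2.04, and Abca12 is highest at 2.63 with a wide interval.

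**Figure D2:**
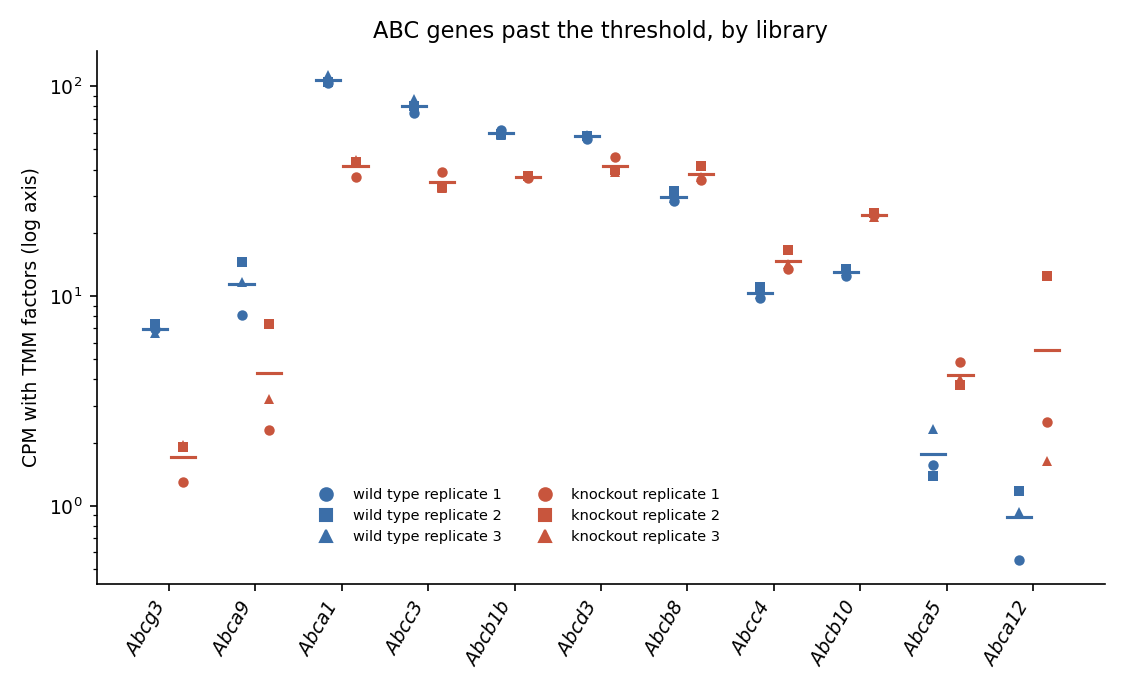
Level of called ABC genes in each library, in CPM on a log axis, with 3 wild type (blue) and 3 knockout (red) libraries per gene. Symbols mark the replicate number and short lines the group means. Knockout values lie on one side of all wild type values for each gene shown, and Abca12 in knockout replicate 2 stands far above the other knockout libraries.

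Among the 9 genes of the drug exporters, Abcc3 and Abcb1b fell, Abcc4 rose and the other 6 did not pass the test. Abcc3 had the highest mean CPM of the 9 in wild type, and Abcc1 had it in knockout tumors. Abcc3 (MRP3), which exports glucuronide conjugates and bile acids, was at 74.5, 80.4 and 86.7 CPM in wild type and at 38.9, 32.9 and 32.7 CPM in knockout libraries. Every knockout library held less than every wild type library, a 2.31-fold lower level (log2 fold change -1.21, SE 0.11, edgeR adjusted p = 7.51e-05). Abcb1b, one of the pair of genes for P-glycoprotein in the mouse, was at 61.9, 59.2 and 58.3 CPM in wild type and at 36.4, 37.4 and 37.2 CPM in knockout libraries. The replicates of each group lay close together, and the level was 1.62-fold lower (log2 fold change -0.69, SE 0.08, edgeR adjusted p = 0.000364). Both genes were called lower under each alternative run. Abcc4 (MRP4), which exports cyclic nucleotides and prostaglandins, was at 9.83, 11.0 and 10.2 CPM in wild type and at 13.4, 16.6 and 14.2 CPM in knockout libraries. It was 1.42-fold higher (log2 fold change 0.51, SE 0.13, edgeR adjusted p = 0.0156), the smallest of the 3 changes. That call was lost in 5 of 15 alternatives. Among them were fits without wild type replicate 1, 2 or 3, at edgeR adjusted p = 0.111, 0.0632 and 0.0808, and with no filter on low genes (adjusted p = 0.0966). The sum of 9 macrophage markers was lower in every knockout library and that of 8 epithelial markers higher, and their part in the levels of these exporters was not tested. Of the 9, 33.3% were called, near the 36.0% of all genes.

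The other P-glycoprotein gene, Abcb1a, was at 4.45, 4.24 and 6.33 CPM in wild type and at 5.63, 6.48 and 6.24 CPM in knockout libraries. These ranges overlapped (log2 fold change 0.29, 95% interval -0.15 to 0.72, edgeR adjusted p = 0.267). Abcb1b lies 49571 bases downstream of Abcb1a on chromosome 5 and on the same strand. Per kilobase of exon, the level of Abcb1b was 8.48 ± 1.88 (SD, n = 3) times that of Abcb1a in wild type and 4.16 ± 0.245 times in knockout tumors, with no test made. The ratio was 9.56, 9.58 and 6.31 in wild type and 4.43, 3.96 and 4.09 in knockout libraries, so the groups did not overlap. The paralogs are alike in sequence, so a read pair placed in both is lost from the counts, and 10.1% of Abcb1a's exonic bases also lie in exons of another gene.

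Abcg2, the breast cancer resistance protein, was at 6.49, 5.85 and 8.50 CPM in wild type and at 6.60, 8.33 and 6.93 CPM in knockout libraries. The groups overlapped, and the 95% interval of the log2 fold change was -0.35 to 0.48 (edgeR adjusted p = 0.790). Abcc1 (MRP1), an exporter of glutathione conjugates and leukotriene C4, was at 66.8, 76.9 and 67.2 CPM in wild type and at 73.8, 92.1 and 78.9 CPM in knockout libraries. Its interval was -0.03 to 0.46 (edgeR adjusted p = 0.156). Abcc5 (MRP5) had an interval of -0.24 to 0.39 and Abcc10 (MRP7) of -0.60 to 0.28, though Abcc10 passed as lower with only the libraries under 40% unmapped (-0.55, edgeR adjusted p = 0.0342). A change of 2-fold either way lay outside the intervals of Abcb1a, Abcg2, Abcc1, Abcc5 and Abcc10. Abcc2 (MRP2), the exporter of the bile canaliculus in liver, was at 0.107 to 0.318 CPM in wild type and at 0.119 to 1.16 CPM in knockout libraries, and its interval of -0.23 to 3.11 was wide. Without knockout replicate 2, Abcc2 passed (1.87, edgeR adjusted p = 0.0145).

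Per kilobase of exon, the makeup of the 9 exporters shifted. Abcc3 made up 41.0%, 42.6% and 44.1% of their summed level in wild type and 29.6%, 22.6% and 24.6% in knockout libraries. The share of Abcc1 was 13.9%, 15.4% and 12.9% in wild type and 21.2%, 23.9% and 22.5% in knockout libraries, and that of Abcc4 was 4.61% to 5.18% against 9.07% to 10.2%. Shares move together by construction, since a fall of Abcc3 raises the others. Summed over the 9 genes, CPM came to 264 ± 7.70 in wild type against 213 ± 16.3 in knockout tumors (mean ± SD, n = 3).

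**Figure D3:**
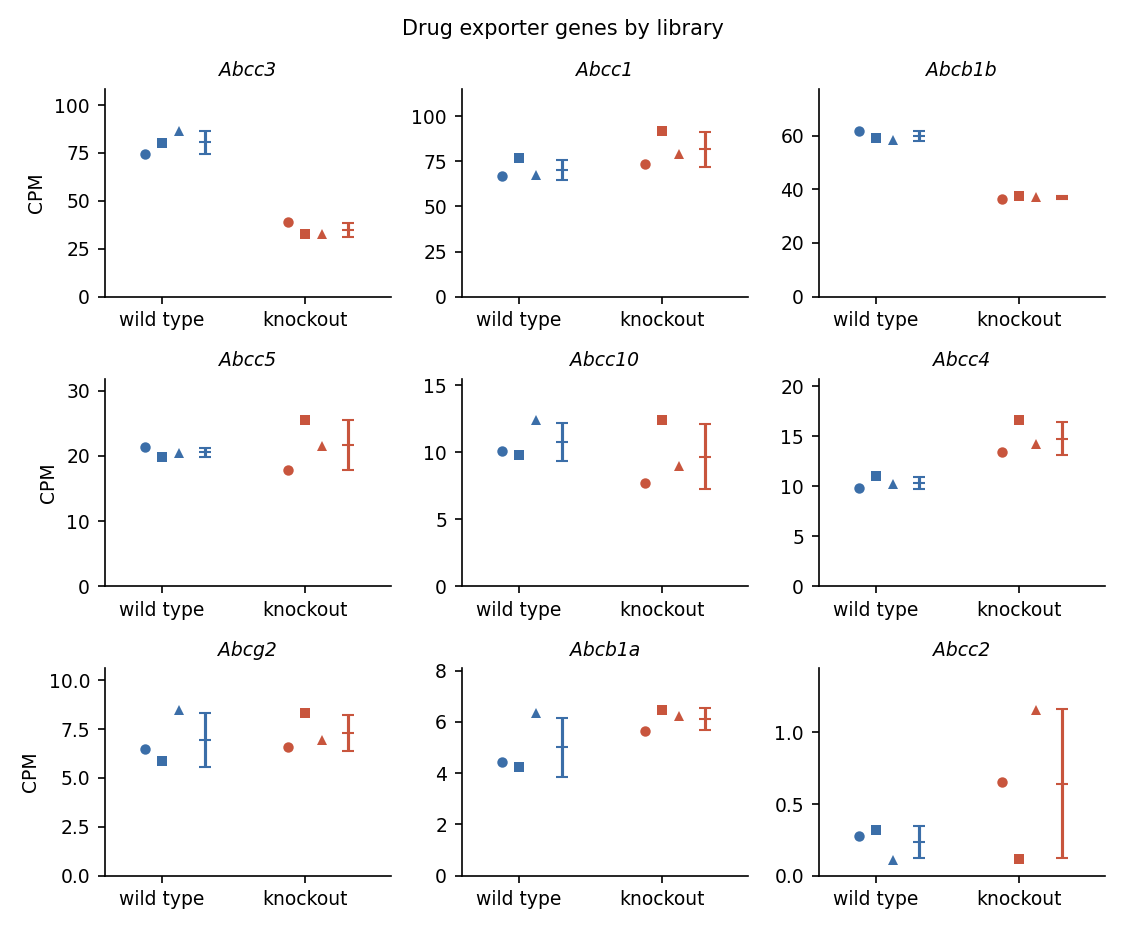
Level of the 9 drug exporter genes in CPM (each axis from 0) in 3 wild type (blue) and 3 knockout (red) libraries. Symbols mark replicates 1 (circle), 2 (square) and 3 (triangle), and the bars give mean ± SD. Abcc3 and Abcb1b are lower and Abcc4 is higher in each knockout library, while the ranges of the other 6 genes overlap.

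Lipid transporters of subfamily A moved both ways, 2 higher and 2 lower of 15 tested. Each is 13.3%, against 17.6% of all genes higher and 18.4% lower, so neither share is above the background. Abca1 (chromosome 4, 53030787 to 53159895), which loads cholesterol and phospholipid onto apolipoprotein A-I, was at 104, 105 and 113 CPM in wild type and at 36.9, 43.7 and 44.4 CPM in knockout libraries. The groups lay far apart, a 2.57-fold lower level (log2 fold change -1.36, SE 0.10, edgeR adjusted p = 2.93e-05). Abca9, a relative from a gene cluster on chromosome 11, was at 8.14, 14.5 and 11.6 CPM in wild type and at 2.31, 7.39 and 3.23 CPM in knockout libraries. Knockout replicate 2 came near the lowest wild type library (log2 fold change -1.41, SE 0.40, edgeR adjusted p = 0.0241). The call of Abca9 was lost without wild type replicate 2 or 3 or knockout replicate 3, at edgeR adjusted p = 0.0848, 0.0563 and 0.0972, and with a covariate for the share outside exons (-1.02, adjusted p = 0.124). Without knockout replicate 2 the log2 fold change of Abca9 was -2.11. Markers of macrophages, which export much cholesterol through Abca1, fell as well. All 9 of 9 macrophage genes were lower, none of them at 0, and their sum was 5119.9 to 5988 CPM in wild type and 855 to 1002 CPM in knockout libraries. Among them Cd68 fell by 1.34 and Csf1r fell by 1.24 on the log2 scale. Their part in the fall of Abca1 and Abca9 was not tested. Of the 7 fibroblast markers, 6 were higher, opposite to Abca9, such as Col1a1 (log2 fold change 1.49) and Col1a2 (1.18). Only Pdgfra, a receptor of fibroblasts, was lower (log2 fold change -0.68, edgeR adjusted p = 0.00304). The part of fibroblasts was not tested.

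Abca12, which moves lipids into the barrier granules of keratinocytes, was at 0.552, 1.17 and 0.935 CPM in wild type and at 2.50, 12.4 and 1.63 CPM in knockout libraries. Knockout replicate 2 set most of the rise (log2 fold change 2.63, SE 0.73, edgeR adjusted p = 0.0223), which was 1.19 without that library (adjusted p = 0.0225). The call was lost without wild type replicate 1, 2 or 3, at edgeR adjusted p = 0.0864, 0.0520 and 0.0765. The 7 keratinocyte markers, all called higher, summed to 71.3 to 127 CPM in wild type and to 962, 1601 and 726 CPM in knockout replicates 1 to 3, the same order as Abca12, with replicate 2 highest as for most other marker lists. Of these, Krt14 rose by 4.29 and Krt5 by 2.25 on the log2 scale. The part of these cells in the level of Abca12 was not tested. Abca5, a lysosomal lipid transporter, was at 1.57, 1.38 and 2.32 CPM in wild type and at 4.85, 3.75 and 4.04 CPM in knockout libraries, without overlap. It rose 2.40-fold (log2 fold change 1.26, SE 0.24, edgeR adjusted p = 0.00489) and was called under each alternative run.

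Abca5, Abca6, Abca9, Abca8a and Abca8b lie side by side on chromosome 11, all on the minus strand, with gaps of 4770 to 29788 bases between neighbours. Abca5 rose and Abca9 fell, with only Abca6 between them (log2 fold change 0.89, edgeR adjusted p = 0.156). Abca8a was at 0.469, 1.01 and 0.615 CPM in wild type and at 0.976, 3.48 and 0.817 CPM in knockout libraries, and it did not pass (edgeR adjusted p = 0.106). Knockout replicate 2, the highest for Abca8a, was also the library with the largest sum of the 7 fibroblast markers, 11786 CPM against 6552 and 8132, and of the 6 adipocyte markers, 534 CPM against 204 and 252. Of the knockout libraries, replicate 2 also had the largest sums of the macrophage, endothelial, pericyte, keratinocyte and mast cell markers, so this order is not particular to one cell type. The part of those cells was not tested.

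The abundant lipid transporters Abca2, Abca7 and Abca3 did not pass. Abca2, of endosomes and lysosomes, was at 70.3, 74.8 and 66.8 CPM in wild type and at 43.1, 65.0 and 52.2 CPM in knockout libraries. The groups lay apart, and the gene missed the threshold (log2 fold change -0.40, 95% interval -0.73 to -0.08, edgeR adjusted p = 0.0557). Abca7, a phospholipid transporter, was also lower in each knockout library and missed it (-0.35, interval -0.64 to -0.06, edgeR adjusted p = 0.0608). Without knockout replicate 2, both passed, at edgeR adjusted p = 0.00186 for Abca2 and 0.00126 for Abca7. Over all 6 libraries, both passed in DESeq2 (adjusted p = 0.0262 and 0.0439) and with the replicate number as a block (edgeR adjusted p = 0.0265 and 0.0377). With a covariate for the share outside exons neither passed (edgeR adjusted p = 0.266 and 0.355). In 10 of 15 alternatives each stayed uncalled. Abca3, which fills the surfactant bodies of lung alveolar cells, was at 59.5, 66.5 and 63.5 CPM in wild type and at 54.2, 83.8 and 71.3 CPM in knockout libraries. The groups overlapped (log2 fold change 0.14, edgeR adjusted p = 0.473), and the value followed the library left out, at 0.29 (adjusted p = 0.0447) when knockout replicate 1 was dropped and at -0.28 (adjusted p = 0.0344) over the 4 libraries under 40% unmapped.

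Subfamily G held the largest fall of the family. Abcg3, a relative of Abcg2 found in rodents, was at 6.96, 7.36 and 6.63 CPM in wild type and at 1.30, 1.90 and 1.94 CPM in knockout libraries. The groups were well apart, a 4.10-fold lower level (log2 fold change -2.04, SE 0.20, edgeR adjusted p = 0.00014). Abcg1, which moves cholesterol to high-density lipoprotein beside Abca1, was at 20.0, 18.6 and 23.5 CPM in wild type and at 14.4, 19.0 and 17.6 CPM in knockout libraries. Its groups overlapped (log2 fold change -0.29, 95% interval -0.61 to 0.04, edgeR adjusted p = 0.145), and it passed without knockout replicate 2 (-0.42, adjusted p = 0.0370). Abcg4, a sterol transporter of brain, was at 0.939 to 1.22 CPM in wild type and at 0.943, 2.73 and 0.990 CPM in knockout libraries. Abcg5 and Abcg8, which pair to form the sterol pump of gut and liver, had 39 and 43 reads in all and were not tested.

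Genes of sterol handling around Abca1 were lower for 5 of 12 (41.7%, against 18.4% of all genes) and the other 7 did not pass. Apoe, an apolipoprotein that takes up cholesterol from macrophages, was at 2577, 1861 and 2396 CPM in wild type and at 696, 1106 and 831 CPM in knockout libraries (log2 fold change -1.38, SE 0.19, edgeR adjusted p = 0.00086). Mylip, an LXR target that degrades the LDL receptor, fell by 0.54, and Npc1, which exports cholesterol from lysosomes, fell by 0.64 on the log2 scale. With a covariate for the share outside exons the call of Npc1 was lost (edgeR adjusted p = 0.0537). Macrophage markers fell beside these genes, as given above. The LXR genes themselves, Nr1h3 and Nr1h2, were at 5.45 and 117 CPM in wild type and at 4.83 and 99.1 CPM in knockout tumors, and neither passed (edgeR adjusted p = 0.492 and 0.109).

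The mitochondrial transporters Abcb10 and Abcb8 of subfamily B rose. Abcb10, of the inner membrane and linked to heme synthesis, was at 12.5, 13.5 and 13.1 CPM in wild type and at 24.4, 24.9 and 23.8 CPM in knockout libraries. Replicates were tight in both groups, and the gene rose 1.87-fold (log2 fold change 0.90, SE 0.10, edgeR adjusted p = 0.000265) and was called higher under each alternative. Of its exonic bases, 10.3% also lie in exons of another gene. Abcb8, also of the inner membrane, was at 28.3, 31.5 and 29.3 CPM in wild type and at 35.8, 41.6 and 36.7 CPM in knockout libraries, a 1.28-fold rise (edgeR adjusted p = 0.0241). Its call was lost in 8 of 15 alternatives. Among them were fits without any 1 of the wild type libraries or knockout replicate 2 or 3, at edgeR adjusted p = 0.0575 to 0.181, and DESeq2 (adjusted p = 0.0958). With no filter on low counts it was lost as well.

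Of 12 genes for iron-sulfur clusters and heme, 1 rose and 1 fell, 8.33% each, under the 17.6% and 18.4% of all genes. Cpox, an enzyme of heme synthesis, rose from 16.9 to 18.0 CPM in wild type to 22.9 to 27.3 CPM in knockout libraries (log2 fold change 0.57, edgeR adjusted p = 0.00454). Glrx5, which passes on iron-sulfur clusters, fell by 0.51 (edgeR adjusted p = 0.0160). That call was lost without wild type replicate 1 or 2 or knockout replicate 3, at edgeR adjusted p = 0.0505, 0.0538 and 0.0507, and with a covariate for the share outside exons (adjusted p = 0.103). Tmem14c, a heme intermediate carrier, had a wild type mean of 64.8 CPM and a knockout mean of 49.0 CPM (edgeR adjusted p = 0.0557).

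The remaining members of subfamily B were low or cannot be read. Abcb6, a porphyrin transporter, had only 60 reads, and 55.2% of its exonic bases are shared with another annotated gene. Pairs in shared bases are not counted, and their number was not measured, so its level is uncertain. Abcb9, a peptide transporter of lysosomes, was at 0.828 to 1.52 CPM in wild type and at 1.27 to 1.86 CPM in knockout libraries. Abcb4, the phosphatidylcholine pump of bile, was at 1.13 to 1.67 CPM in wild type and at 0.553 to 1.76 CPM in knockout libraries. Neither passed (edgeR adjusted p = 0.324 for Abcb9 and 0.691 for Abcb4).

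The peptide transporter of antigen presentation, TAP, also belongs to subfamily B, under the symbols Tap1 and Tap2, which the rule on symbols leaves out. Both fell. Tap1 was at 53.3, 50.3 and 65.8 CPM in wild type and at 36.3, 41.4 and 40.5 CPM in knockout libraries (log2 fold change -0.52, SE 0.12, edgeR adjusted p = 0.0105), a call lost with a covariate for the share outside exons (adjusted p = 0.0721). Tap2 was at 53.3, 55.5 and 68.4 CPM in wild type and at 35.5, 38.4 and 30.5 CPM in knockout libraries (log2 fold change -0.76, SE 0.13, edgeR adjusted p = 0.00255). No knockout library reached a wild type value for either gene. Of 7 genes for loading peptides on MHC class I, both included, 5 fell (71.4%, against 18.4% of all genes) and 1 rose (14.3%, against 17.6%). Erap1, which trims the peptides, fell by 1.28, and Calr, a chaperone, rose by 0.60 on the log2 scale. Beside the macrophage markers, 4 of 4 tested natural killer markers fell, with sums of 33.5 to 45.6 CPM in wild type and 0.830 to 1.20 CPM in knockout libraries. The part of these cells was not tested. The third ABC gene under another name, Cftr, a chloride channel, was counted at 0 to 0.0552 CPM and not tested.

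In subfamily D, the peroxisomal Abcd3 fell, and Abcd2 and Abcd4 did not pass. Abcd3, the importer of branched-chain fatty acids and bile acid precursors, was at 55.9, 58.0 and 58.8 CPM in wild type and between 38.9 and 46.1 CPM in the 3 knockout libraries. That is a 1.38-fold fall (log2 fold change -0.47, SE 0.09, edgeR adjusted p = 0.00609), without overlap between the groups. Abcd2, another peroxisomal transporter, was at 4.80, 3.47 and 3.55 CPM in wild type and at 3.87, 8.37 and 4.90 CPM in knockout libraries. Knockout replicate 2 was the highest, and the gene did not pass (edgeR adjusted p = 0.180). Abcd4, which serves cobalamin in lysosomes, had levels of 39.1 to 41.8 CPM in wild type and 37.0 to 39.6 CPM in knockout libraries (edgeR adjusted p = 0.457).

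Of 12 genes of peroxisomal fatty acid oxidation and biogenesis, 4 fell (33.3%, against 18.4% of all genes) and 2 rose (16.7%, against 17.6%). Cat, catalase, rose from 67.8 to 69.5 CPM in wild type to 88.7 to 111 CPM in knockout libraries (log2 fold change 0.56, edgeR adjusted p = 0.00347). Scp2, a thiolase and sterol carrier, fell by 0.40 and Hsd17b4, an enzyme of beta-oxidation, fell by 0.30 on the log2 scale. Each of these calls, Scp2 and Hsd17b4, was lost without any 1 of the wild type libraries or knockout replicate 3, at edgeR adjusted p = 0.0504 to 0.0957. Both were also lost with a covariate for the share outside exons, at edgeR adjusted p = 0.121. In all, Scp2 lost its call in 5 and Hsd17b4 in 6 of 15 alternatives.

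Per kilobase of exon, the family's most abundant genes were those of translation. In wild type, Abcf2 was at 34.8 ± 1.04, Abcf1 at 34.4 ± 1.70 and Abce1 at 32.6 ± 0.865 CPM per kilobase (SD, n = 3 each). Neighbours among these 3 overlapped in mean ± SD. Next in wild type were Abcc3 at 14.1 ± 1.07 and Abcf3 at 14.0 ± 0.472, which overlapped as well, and then Abca1 at 10.3 ± 0.467. In knockout tumors Abce1 (36.1 ± 2.90), Abcf1 (35.2 ± 2.31), Abcf2 (30.3 ± 1.27) and Abcf3 (12.5 ± 1.51) came first, of which Abce1 and Abcf1 overlapped in mean ± SD. Abcc3 moved from place 4 of 49 to place 9 and Abca1 from place 6 to place 17.

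Abce1, which splits ribosomes after termination, was at 199, 199 and 189.8 CPM in wild type and at 233, 198 and 219 CPM in knockout libraries. The groups overlapped (log2 fold change 0.15, 95% interval -0.06 to 0.35, edgeR adjusted p = 0.233). Abcf1, a factor of translation initiation, had an interval of -0.17 to 0.24, Abcf2 of -0.39 to -0.02 and Abcf3, a partner of the Gcn2 pathway, of -0.40 to 0.08. None of the 4 passed, and a change of 2-fold either way lay outside each interval. Without knockout replicate 2, Abcf2 passed (-0.28, edgeR adjusted p = 0.0274), and without knockout replicate 1, Abcf3 did (-0.27, edgeR adjusted p = 0.0274). Of 9 genes for ribosome recycling and the Gcn2 pathway, 11.1% were higher, under the 17.6% of all genes, namely Hbs1l (log2 fold change 0.31, edgeR adjusted p = 0.0187). This factor rescues stalled ribosomes, and its call was lost in 7 of 15 alternatives. Among them were fits without any 1 of the wild type libraries or knockout replicate 2, at edgeR adjusted p = 0.0520 to 0.170, and DESeq2 (adjusted p = 0.121). Atf4, a transcription factor of amino acid stress, had a wild type mean of 255 CPM and a knockout mean of 309 CPM. For Eif2s1, a subunit of an initiation factor, the means were 151 and 121 CPM. Neither passed (edgeR adjusted p = 0.0793 and 0.0894).

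Abcc9, the sulfonylurea receptor of vascular potassium channels and a gene of pericytes, was at 8.03, 9.67 and 9.75 CPM in wild type and at 9.56, 16.6 and 11.1 CPM in knockout libraries. The ranges overlapped (log2 fold change 0.44, 95% interval -0.03 to 0.91, edgeR adjusted p = 0.130), and the gene passed without knockout replicate 1 (0.59, adjusted p = 0.0362). Its channel partner Kcnj8 had a wild type mean of 7.92 CPM and a knockout mean of 8.72 CPM (edgeR adjusted p = 0.525). The 6 pericyte markers, Kcnj8 among them, were higher for 4, and their sum was 189 to 243 CPM in wild type and 300.2, 471 and 339.8 CPM in knockout replicates 1 to 3, highest in replicate 2 as for Abcc9 and for most other marker lists. Their part was not tested.

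Regulators of drug transporter genes moved in both directions. Of 12 genes of the NRF2 pathway, 6 fell (50.0%, against 18.4% of all genes) and 1 rose (8.33%, against 17.6%). NRF2 is a transcription factor of the response to oxidants, known to drive several Abcc genes. Its gene Nfe2l2 was at 159, 146 and 165 CPM in wild type and at 78.5, 84.7 and 85.6 CPM in knockout libraries (log2 fold change -0.92, SE 0.09, edgeR adjusted p = 0.000128). Hmox1, heme oxygenase 1, fell by 0.72, while Gsr, glutathione reductase, rose by 0.69 on the log2 scale. All 9 macrophage markers fell between the same libraries, with sums of 5119.9 to 5988 CPM in wild type and 855 to 1002 CPM in knockout tumors, and their part in the NRF2 genes was not tested. Of 9 genes for receptors and factors of the drug response, 6 were tested. Of these, 3 fell (50.0%, against 18.4% of all genes) and 2 rose (33.3%, against 17.6%). The glucocorticoid receptor gene Nr3c1 fell by 0.77 and Ahr, the dioxin receptor, fell by 0.71, while the lipid sensor gene Ppard rose by 0.70. Pparg rose by 1.59, from a wild type mean of 1.26 CPM to a knockout mean of 3.80 CPM (edgeR adjusted p = 0.00592). It was at 2.57, 5.57 and 3.27 CPM in knockout replicates 1 to 3. The 6 adipocyte markers, all called higher, summed to 204, 534 and 252 CPM there and to 53.3 to 88.9 CPM in wild type. Replicate 2 was highest for most other marker lists too, and the part of adipocytes in the level of Pparg was not tested. Nr1i2 and Nr1i3, the drug-sensing receptors PXR and CAR of liver, were at 0.187 to 0.301 CPM and at 0 to 0.0552 CPM and were not tested. Of the exonic bases of Nr1i3, 74.9% also lie in exons of other genes. Pairs there are not counted, so the level of Nr1i3 is uncertain. Over all these lists, 24 of 71 tested genes were lower (33.8%, against 18.4% of all genes) and 8 were higher (11.3%, against 17.6%), and the lists were chosen with earlier results known. With a covariate for the share outside exons, 13 were lower.

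The lowest members were highest in 1 knockout library and lowest in another. A mean under 1 CPM over the 6 libraries was found for 16 members, among them Abca14, Abca15 and Abca16, neighbours on chromosome 7, and Abcc6, Abcc8 and Abcb5. The others were Abca4 (of photoreceptors), Abca6, Abca8b, Abca13, Abca17, Abcb6, Abcb11 (the bile salt pump of liver), Abcc2, Abcg5 and Abcg8. None of the 11 tested ones passed, with edgeR adjusted p from 0.0636 for Abca13 to 0.916 for Abcb6, 2 had an unadjusted p under 0.05, and DESeq2 called none of the 11. Of all 4690 tested genes under 1 CPM, 14.8% were called and 25.1% had an unadjusted p under 0.05. Of these 16, 13 were highest among the knockout libraries in replicate 3 and 13 were lowest in replicate 2. Over the 4690 tested genes under 1 CPM, the same held for 50.1% and 51.6%. Only 11 of the 16 passed the filter on low counts, as all 4690 did, so the sets are not alike. Replicate 3 had the largest share of pairs outside exons, 18.9%, and replicate 2 the smallest of the knockout group, 9.9%. Abca16 was at 0.331, 0.450 and 0.267 CPM in wild type and at 0.911, 0.237 and 1.33 CPM in knockout libraries. Replicates 1 and 3 lay above the wild type range and replicate 2 below it (log2 fold change 1.23, 95% interval -0.10 to 2.55, edgeR adjusted p = 0.131). Without knockout replicate 2, Abca13, Abca14, Abca15, Abca16, Abcb5, Abcc2 and Abcc6 were called higher. With a covariate for the share outside exons, the log2 fold change was 0.33 for Abca13, -0.55 for Abca14, -0.04 for Abca16, 0.50 for Abcb5 and -0.27 for Abcc2, and none of these 5 passed (edgeR adjusted p = 0.531 to 0.962). In both settings the cause was not tested. In wild type replicate 1 Abcc8, the sulfonylurea receptor of pancreatic beta cells, had a count of 0, which allows up to 0.081 CPM.

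**Figure D4:**
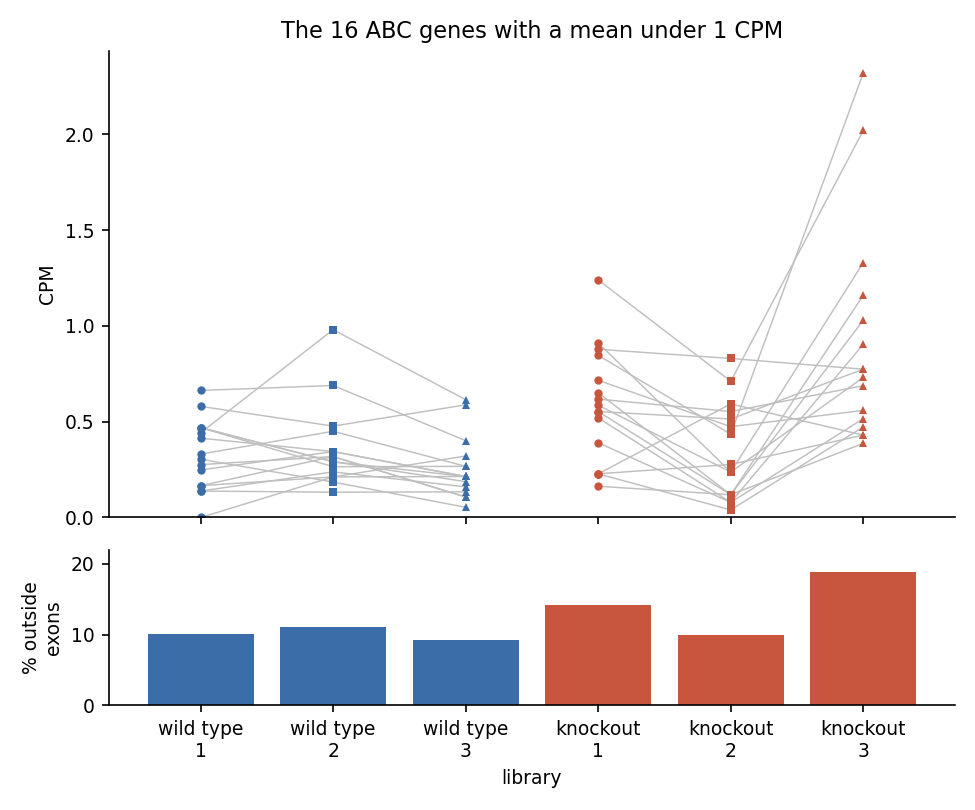
Upper part, level in CPM of the 16 ABC genes with a mean under 1 CPM in each library, with thin lines joining the values of 1 gene within a group and no order among replicates. Lower part, pairs outside annotated exons as a percentage of uniquely mapped pairs in the same libraries. Most genes are highest in knockout replicate 3, where 18.9% of pairs lie outside exons, and lowest of the knockout group in replicate 2, with 9.9%.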

How the data were processed

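For each of 6 tumor libraries the authors deposited 1 table of raw counts, the read pairs assigned to each gene. STAR 2.6.0c, FastQC, DESeq2 and GRCm38 are named in the submitters' processing notes, without roles. Per the labels, reads were paired-end and 50 bases long. The tables have the layout of STAR's gene counting, which sets aside pairs with several map positions or more than 1 gene. The unstranded column was used, since the first stranded column held 50.1% to 50.2% of stranded counts, so a gene and its antisense partner cannot be separated. Of 54146 gene rows, 54079 matched GENCODE M21 by identifier. The 4 leading rows, which name no gene, stayed out. The main test was edgeR's (version 4.0.16, R 4.3.3; filterByExpr, TMM, glmQLFit and glmQLFTest), on genotype alone, with Benjamini-Hochberg adjustment over all genes tested. SE is the absolute log2 fold change over the square root of F, and intervals use the test's degrees of freedom. CPM uses TMM factors, and per-kilobase levels divide by the union of exons. The steps were tested on simulated data. Alternatives were DESeq2 1.42.0, RLE factors, 2 other filters, a stranded column, each library left out, a replicate block and, added after seeing the data, library totals alone, a covariate for the share outside exons, and libraries under 40% unmapped.

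The members and lists were chosen with earlier results of these data known. Counts cover all members, but the values of 2 of them are not reported here. Full values are given for called members of at least 2-fold, for each drug exporter and for up to 3 genes with the smallest p per pathway list; other values were chosen after they were seen, to account for the members. Gcn1 is listed as Gcn1l1. The labels number the replicates but do not say whether they are separate animals, so p-values measure the spread between these samples, which may be technical. Zero-count limits (3 counts) cover counting error only.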

Additional observations from a re-analysis of the deposited data

How the results depend on the processing

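Abca1, Abcg3, Abcc3, Abcb1b, Abcd3, Abca5 and Abcb10 were called in the same direction under all 15 alternatives. With 1 library left out in turn, the number of members higher ranged from 2 to 11, the number of drug exporters higher from 0 to 2, and the number of all genes called from 4078 to 9301. Such fits leave 2 libraries in 1 group. Where edgeR called 0 exporters higher, 1 or 2 had an unadjusted p under 0.05. DESeq2, run on all 6 libraries only, called 1. Without the filter on low counts, 0 exporters were called higher. With only libraries under 40% unmapped, where the lone knockout library is assumed to vary like the wild type ones, 14 members were lower, 0 exporters were higher, and Abca3 turned to a log2 fold change of -0.28. With a covariate for the share outside exons, 13 pathway genes were lower. The causes were not tested. With the replicate number as a block, 5 members were higher and 10 lower. Correlations of deviations between libraries of equal number were 0.053, -0.212 and -0.243. No pairing by number was seen, though 3 libraries per group cannot exclude it. Depth limits the 5 untested members, which had 39 to 59 reads in all.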
